A study of Mus musculus with 2 samples.

Results

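The Sfmbt2 cluster is a tandem array of microRNA genes inside 1 intron of Sfmbt2, which encodes a Polycomb group protein. Its members are the miRNA genes that lie on the plus strand of mouse chromosome 2 wholly within Sfmbt2 in GENCODE M21 (mm10), and 119 of the 2202 miRNA genes in the deposited count tables met that rule. They were measured in heart tissue of 2 male B6CASTF1/J mice, the first-generation cross of C57BL/6J with CAST, aged 25 days by the age label, although the sample descriptions attach months to the same figure. Both libraries form 1 untreated group with 1 library per numbered animal, and the labels give both animals the same donor identifier, so the spread between the libraries may be technical. Small RNA below 30 nucleotides was selected, and whole tissue was used, so fewer cells of a type and less RNA per cell cannot be told apart.

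MicroRNAs are cut from hairpins in longer transcripts, and the loaded strand recognises messenger RNAs mainly through its seed, bases 2 to 8. In the mouse, Sfmbt2 is an imprinted gene expressed from the paternal allele in early embryos and trophoblast, and its miRNA array, which is found in rodents, is known for its part in growth of the placenta. The array repeats the Mir466, Mir467, Mir669 and Mir297 families. Among products of these families, miR-669a is known to restrain skeletal muscle differentiation in cardiac progenitors through MyoD, miR-466l to stabilise the messenger RNA of interleukin 10 and miR-467b to repress lipoprotein lipase in macrophages.

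RefSeq (GRCm38.p6) sequences were matched by symbol. The table held mature sequences of 8 relatives outside Sfmbt2, and 4 of them are shown as examples, chosen after their matches were seen. Capitals mark the seed.
mmu-miR-466i-3p, chr13:17747552-17747573, plus strand: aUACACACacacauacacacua
mmu-miR-466j, chr10:60960802-60960824, plus strand: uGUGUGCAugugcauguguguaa
mmu-miR-467g, chr5:34732872-34732892, minus strand: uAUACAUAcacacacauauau
mmu-miR-669n, chr3:115979905-115979924, plus strand: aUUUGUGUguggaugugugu
No member hairpin held any of the 8 sequences whole. The letters of the miR-466i-3p seed, written as TACACAC in DNA, lay on the strand of the gene in 60 of 119 member hairpins (50.4%), among them all 7 members detected below, against 180 of all 2202 hairpins (8.17%). On the opposite strand they lay in 86 member hairpins and in 217 of all. The letters of the miR-467g seed lay in 78 member hairpins on the strand of the gene (65.5%), against 143 of all hairpins (6.49%). Those of miR-466j lay in 62 (52.1%) against 106 (4.81%), and those of miR-669n in 10 (8.40%) against 57 (2.59%). For these 3 seeds, in that order, the opposite strand held matches in 10, 30 and 9 member hairpins, against 102, 58 and 19 of all 2202 hairpins. Of the 4 relatives not shown, the seed letters of miR-466k lay in 50 member hairpins on the strand of the gene (42.0%) against 210 of all (9.54%), those of miR-466q in 30 (25.2%) against 58 (2.63%) and those of miR-467f in 27 (22.7%) against 113 (5.13%). Those of miR-467h lay in 1 member hairpin (0.840%) against 14 of all (0.636%). Only the miR-466i-3p letters lay in all 7 detected members. Those of miR-466j and miR-467g lay in 5 each, those of miR-466k, miR-466q and miR-467f in 4 each, and those of miR-467h and miR-669n in 1 each. The longer run TGTGTGTG, or CACACACA on the other strand, lay in 88 member hairpins (73.9%) against 257 of all hairpins (11.7%). TGTGTGTG holds the miR-466k seed letters whole, and the run can overlap those of other relatives, such as miR-466i-3p and miR-466j. These matches describe hairpin letters and are not evidence of which product is made.

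The 119 genes spanned 53.0 kb, from 10465287 to 10518279, within a host gene that runs from 10370510 to 10595253. All of them fell in intron 10 of the transcript Sfmbt2-201, a 62.5 kb intron from 10461473 to 10523944, and none overlapped an exon of an annotated Sfmbt2 transcript. The median gap between neighbours was 206 bases. The members comprised 29 Mir669, 23 Mir466, 14 Mir467 and 5 Mir297 genes, and 48 listed only under Gm names. The 119 hairpins held 88 distinct sequences, and 47 members had at least 1 exact copy within the array. The 9 genes Mir669a-4 to Mir669a-12 shared 1 hairpin sequence, and a second set of 7 identical hairpins comprised 6 Mir467a genes and Gm25022. Starts of successive Mir467a genes, Mir467a-1 to Mir467a-10, were a median of 2.46 kb apart.

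Few members carried assigned reads in the heart. At least 10 reads were assigned to 7 of the 119 genes (5.88%) in both libraries, and such genes are called detected. Over all listed miRNA genes the same minimum gave 356 of 2202 (16.2%). Another 8 members held between 1 and 10 reads in a library, and 104 had 0 reads in both. All members together held 6124 of 4930853 assigned reads in replicate 1, a share of 0.124% (exact Clopper-Pearson 95% interval 0.121 to 0.127%), and 7048 of 5229819 in replicate 2, a share of 0.135% (0.132 to 0.138%). Their mean share was 0.129 ± 0.00747% (SD, n = 2). A count of 0 allows a level of up to 0.608 CPM (assigned reads scaled to a library total of 1000000) in the library of replicate 1 and up to 0.574 CPM in that of replicate 2. This, like every interval given, covers counting error only, and reads placed at several loci are in no gene's count.

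Mir467d was the most abundant member by assigned reads, and it alone supplied more of them than the other 118 genes together in each library. It had 4027 reads in replicate 1 (817 CPM) and 3580 in replicate 2 (685 CPM), a mean of 751 ± 93.5 CPM (SD, n = 2), which ranked 81 among all listed miRNA genes. The gene lies from 10507630 to 10507714. Its reads made up 65.8% (64.6 to 66.9%) of the cluster in replicate 1 and 50.8% (49.6 to 52.0%) in replicate 2. The next members in order were Mir669c and Mir467e. Mir669c (10509296 to 10509404) had 630 and 1101 reads in replicates 1 and 2, or 128 and 211 CPM. Mir467e (10505721 to 10505807) had 622 and 879 reads, or 126 and 168 CPM. In replicate 1 these 2 genes were close to each other, and Mir669c was above Mir467e in replicate 2. Mir669o (10514300 to 10514395) had 427 and 891 reads, or 86.6 and 170 CPM. In replicate 2 it was level with Mir467e, while in replicate 1 it was lower. Mir467c (10473931 to 10474027) had 326 and 254 reads, or 66.1 and 48.6 CPM. Mir669l (10468971 to 10469068) had 67 and 231 reads, or 13.6 and 44.2 CPM. Mir669e (10467495 to 10467613) was the least abundant detected member, with 15 and 91 reads, or 3.04 and 17.4 CPM. The order was the same in both libraries except that Mir467e and Mir669o changed places, and the ranges of Mir669c, Mir467e and Mir669o overlapped. Since each read is a whole small RNA, these levels were not divided by gene length, and any bias of adapter ligation between miRNAs was not measured.

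**Figure D1:**
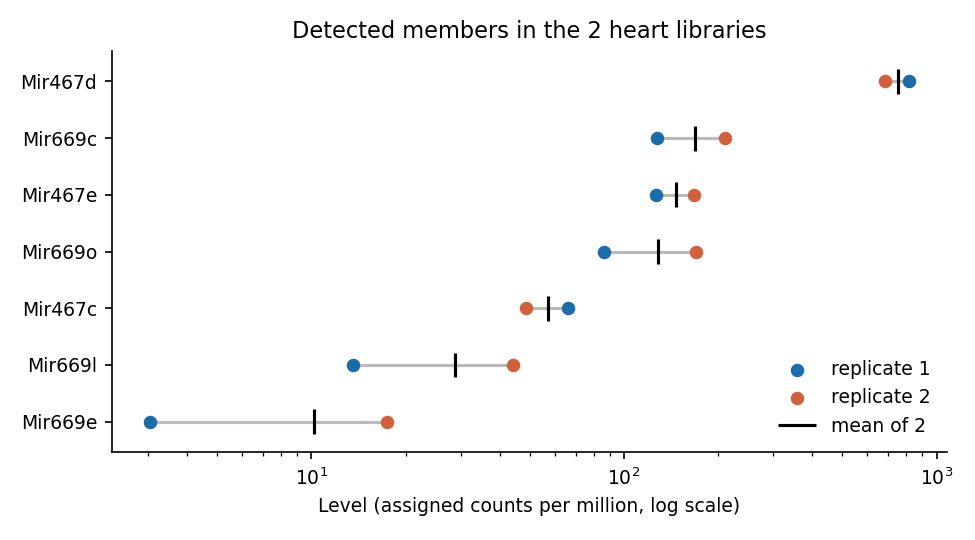
Level of the 7 detected members in CPM on a log axis, with 1 point per library and a bar at the mean of 2. Mir467d lies at 817 and 685 CPM, above every other member in both libraries, and Mir669e, from 3.04 to 17.4 CPM, has the widest spread.

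**Figure D2:**
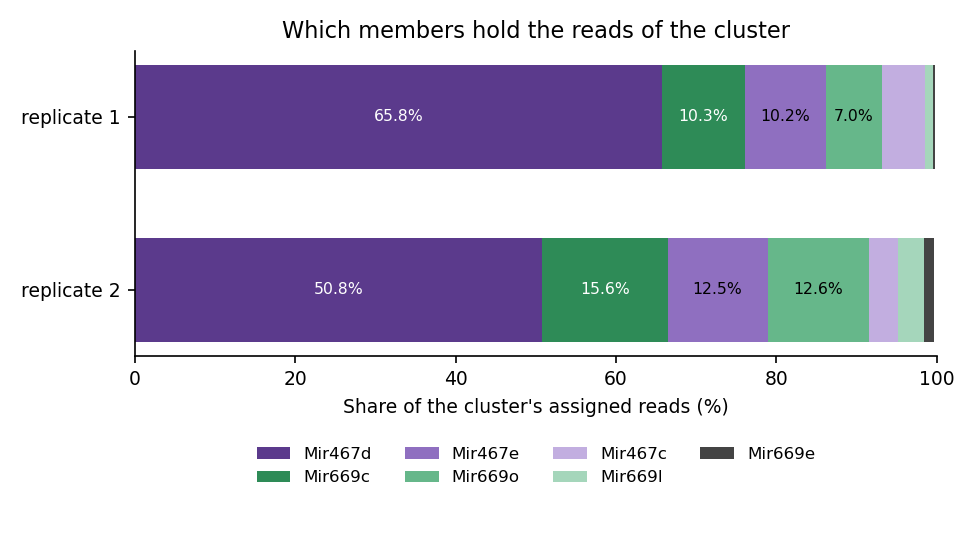
Share of the reads of the cluster, in percent, held by each detected member in each library. Mir467d holds 65.8% in replicate 1 and 50.8% in replicate 2, and Mir669c and Mir669o take larger shares in replicate 2.

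By family, the assigned reads came almost wholly from Mir467 and Mir669 genes. Reads placed at several loci are in no gene's count, so neither these sums nor the 0 counts give the level of a family. The 14 Mir467 genes held 4975 reads in replicate 1 and 4713 in replicate 2, all from Mir467c, Mir467d and Mir467e. The 29 Mir669 genes held 1146 and 2325 reads, of which Mir669h, just under the minimum, had 7 and 10, and Mir669f had 1 read in replicate 2. The 23 Mir466 genes held 0 and 5 reads, with 4 from Mir466n and 1 from Mir466d. The 5 Mir297 genes held 2 reads and 1 read, from Mir297a-2 and Mir297b. The 48 Gm genes held 1 read and 4 reads, from Gm22072 and Gm25263. Other members named above for known functions, Mir669a genes, Mir466l and Mir467b, were at 0 reads in both libraries. The 10 genes with the same family names outside Sfmbt2 were not detected, with 1 read for Mir466q in replicate 1 and 0 for the other 9 genes.

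The reads were also unevenly placed along the array. The 3 detected genes Mir669e, Mir669l and Mir467c lay among the first 17 members, and the 4 genes Mir467e, Mir467d, Mir669c and Mir669o among the last 30. Between Mir467c and Mir467e, 72 consecutive members from 10474219 to 10504773, a stretch of 30.6 kb, had 0 reads in both libraries. The first 17 members held 410 and 579 reads and the last 30 held 5714 and 6469. These 3 stretches were drawn after the counts were seen and were not tested.

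The central stretch was also where the hairpins were most alike. Each hairpin was read as all its runs of 20 bases, and a run was called shared when it occurred, on either strand, in the hairpin of a miRNA gene at another locus. In the central stretch 52 of 72 hairpins consisted of shared runs only, against 0 of the first 17 and 2 of the last 30. The median share of runs found nowhere else was 0% in the centre, 44.0% in the first 17 members and 51.3% in the last 30. Over the whole array 117 of 119 members shared at least 1 run, 116 of them with another member and 33 with a miRNA gene outside the array. For comparison, 970 of the other 2083 miRNA genes (46.6%) shared a run, and of those 970 genes 71 were detected (7.32%). Of the 1113 genes outside the array that shared no run, 278 were detected (25.0%).

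None of the 54 members made only of shared runs had a read, and the 7 detected members were among the 65 that had runs of their own. In the deposited tables, reads placed at several loci stand in an entry of their own, 5497619 reads in replicate 1 and 5375745 in replicate 2, and are in no gene's count. A count of 0 for a member made only of shared runs therefore shows only that no read was assigned to it, and how many of those reads came from the array was not tested. All 15 members with reads had runs of their own, but many members with such runs had no read. Mir467d had the lowest share of own runs among the detected members, 25 of 66 (37.9%), and Mir669e the highest, 95 of 100 (95%). Of the 46 members with at least 25 own runs, the lowest number in a detected member, 33 had 0 reads in both libraries. Among all 119 members 104 had 0 reads in both. The minimum of 25 was taken from the detected members, so these counts do not test whether own runs go with reads. Own runs were counted over the whole hairpin and not over the mature product. A member with own runs may therefore still give reads placed at several loci, and its 0 does not show absence. Gm22239 and Mir466g, the only 2 members that shared no run, were also at 0 reads in both libraries. Mir467d and Mir467e were each other's nearest member, with 7 single-base edits between their hairpins. Copies outside annotated miRNA genes were not searched.

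**Figure D3:**
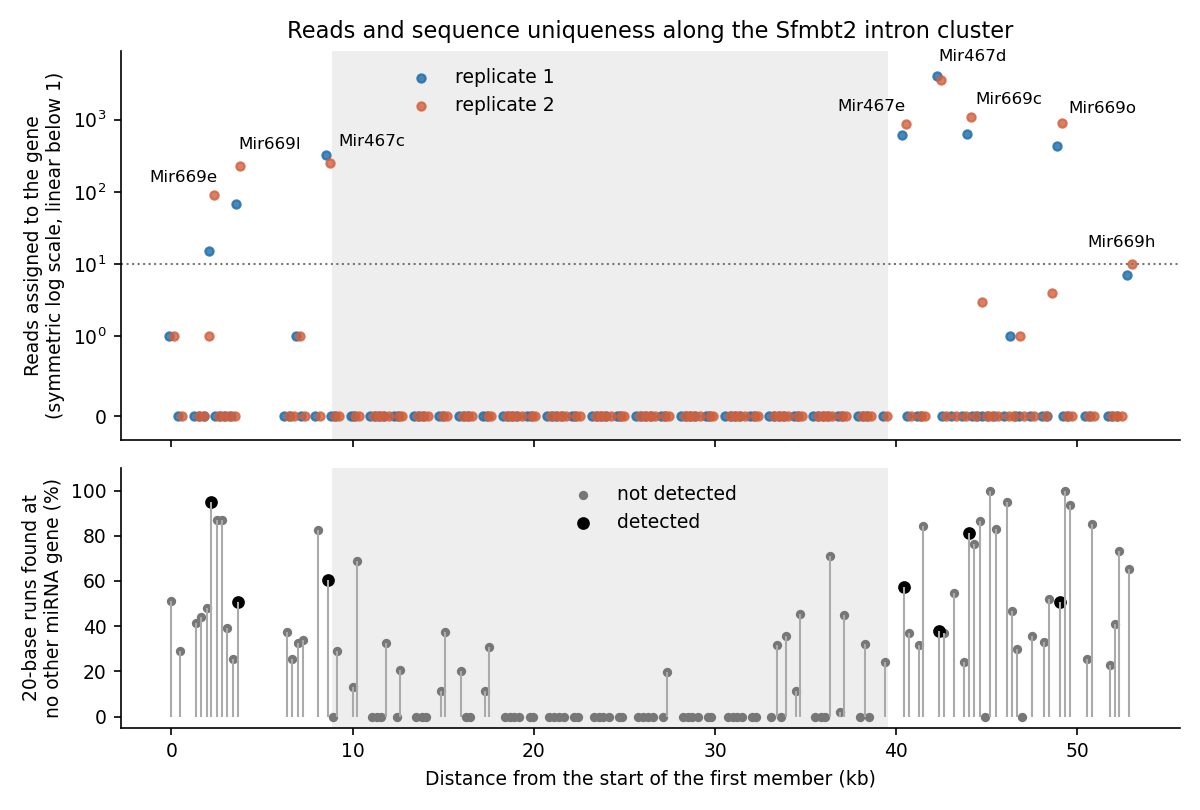
Reads of each of the 119 members (top, symmetric log scale, with replicates 1 and 2 drawn slightly to the left and right) and the percent of its 20-base runs found at no other miRNA gene (bottom), against distance in kb from the start of the first member. Shading marks the 72 consecutive members with 0 reads, and the dotted line is the minimum of 10 reads.

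The 2 heart libraries differed in every detected member beyond counting error, with 5 members higher and 2 lower in replicate 2. For each gene a two-sided exact binomial test, conditional on the gene's reads in both libraries, was used with Benjamini-Hochberg adjustment over all 356 detected miRNA genes. The test compares these 2 libraries and no condition. Over all detected genes the test called 63.5%, with 32.9% higher and 30.6% lower in replicate 2, so calls were common throughout. The median log2 ratio, replicate 2 over replicate 1 with 0.5 added to each count, was 0.72 over the 7 members and 0.02 over all detected genes, whose SD was 0.86. With a minimum of 1, 5 or 100 reads in place of 10, the median over the 10, 8 or 5 members that passed was 0.41, 0.57 or 0.41.

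All 4 detected Mir669 genes were higher in replicate 2. Mir669e was 5.72-fold higher (exact 95% interval 3.29 to 10.6, adjusted p = 3.55e-13, exact binomial test), from 15 and 91 reads. Mir669l was 3.25-fold higher (2.47 to 4.33, adjusted p = 8.05e-20, exact binomial test). Mir669o was 1.97-fold higher (1.75 to 2.21, adjusted p = 1.02e-31, exact binomial test), and Mir669c was 1.65-fold higher (1.49 to 1.82, adjusted p = 1.02e-23, exact binomial test). Only the log2 ratios of Mir669e (2.48), Mir669l (1.69) and Mir669o (0.98) were beyond the SD over detected genes.

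The 3 Mir467 genes did not move one way. Mir467d was 1.19-fold higher in replicate 1 (1.14 to 1.25, adjusted p = 4.56e-14, exact binomial test) and Mir467c 1.36-fold higher in replicate 1 (1.15 to 1.61, adjusted p = 0.000497, exact binomial test). Mir467e was 1.33-fold higher in replicate 2 (1.20 to 1.48, adjusted p = 9.11e-08, exact binomial test). Summed over each family, Mir467 reads were 1.12-fold higher in replicate 1 (1.08 to 1.17) and Mir669 reads 1.91-fold higher in replicate 2 (1.78 to 2.05). Mir467 reads outnumbered Mir669 reads 4.34 to 1 in replicate 1 (exact 95% interval 4.07 to 4.63), and in replicate 2 the ratio was 2.03 (1.93 to 2.13). The family sums were compared after the member values were seen. The whole cluster was 1.09-fold higher in replicate 2 (1.05 to 1.12), and without Mir467d it was 1.56-fold higher (1.48 to 1.65). Genes of 1 intron thus had ratios between libraries from 1.36-fold higher in replicate 1 to 5.72-fold higher in replicate 2.

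**Figure D4:**
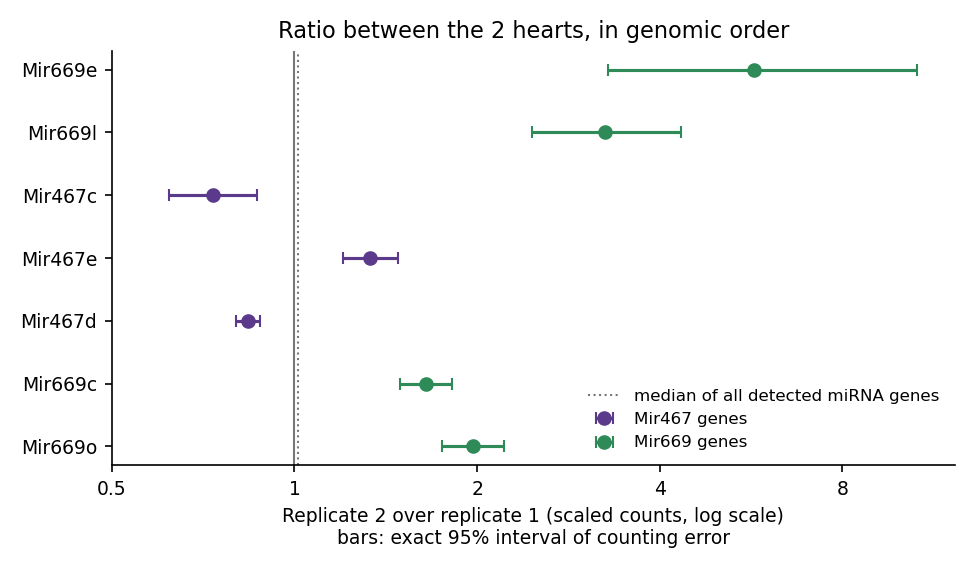
Ratio of scaled counts, replicate 2 over replicate 1, for the 7 detected members in genomic order on a log axis, with exact 95% intervals. The 4 Mir669 genes lie right of 1, Mir467c and Mir467d lie left of it and Mir467e right of it, and the dotted line is the median of all detected genes.

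Markers of cell types were read beside these ratios. The 3 heart muscle genes Mir208a, Mir208b and Mir499 were all detected. Their summed level was 4486 CPM in the library of replicate 1 and 6512 CPM in that of replicate 2. The rise in that sum came from Mir208a, at 1361 and 3562 CPM. Mir499 was at 2933 and 2758 CPM, and Mir208b at 191 and 192 CPM. Red cell genes Mir451a and Mir144 summed to 21812 and 1161 CPM, the smooth muscle and fibroblast genes Mir143, Mir145a and Mir214 to 31893 and 40620 CPM, and endothelial Mir126a was at 56392 and 69422 CPM. The 3 leukocyte genes Mir150, Mir155 and Mir223 summed to 4285 and 4855 CPM, and the liver gene Mir122 was at 25.6 and 16.1 CPM. Of 6 neuronal genes 0 were detected, with Mir124a-1, Mir124a-2, Mir124a-3 and Mir9-2 at 0 reads. All 6 are numbered copies of Mir124a or Mir9, and reads placed at several loci are in no gene's count. Their low counts therefore do not show absence. Among 5 early embryo genes with a listed count, 0 were detected, with Mir290a, Mir291a and Mir295 at 0. The part of these differences in the ratios of the members was not tested.

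Of the 3 other miRNA clusters read beside this one, Dlk1-Dio3 and Mir17-92 had a larger share of their genes detected and the early embryo cluster had none. The imprinted Dlk1-Dio3 cluster on chromosome 12 had 46 of 59 genes detected and held 36980 and 36744 reads in replicates 1 and 2. Of all 59 genes of that cluster, detected or not, 8 shared a run. The median over all its genes, detected or not, was 15.4 CPM, against 0 CPM over the 119 members of the Sfmbt2 cluster. It was also 0 CPM over all 2202 listed miRNA genes. Over detected genes only, the order was the reverse, with a median of 27.4 CPM in Dlk1-Dio3 and 128 CPM in the Sfmbt2 cluster. The median over all detected miRNA genes was 60.3 CPM. The Mir17-92 cluster had 4 of 6 genes detected, and the early embryo cluster 0 of 8. These counts were set side by side without a test, since the clusters differ in how many of their genes share runs.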

How the data were processed

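MicroRNA libraries of heart tissue from 2 mice (1 group, replicates 1 and 2) were analysed. The authors deposited whole-number read counts per miRNA gene, unstranded and for each strand, on build mm10 with GENCODE M21, per the text accompanying the files. The aligner and counter were not given in the sources used here. Counts on each gene's own strand were taken; the 119 members had 0 reads on the opposite strand. The 4 entries that name no gene, 62.7% and 63.6% of reads, were left out of totals. CPM are counts scaled to 1000000 assigned reads.

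Symbols, positions and hairpins came from GENCODE M21, which matched all 2202 genes. Uniqueness had been planned on mature sequences, and hairpin runs were used instead. DESeq2 1.42.0 (factors from detected genes) and edgeR 4.0.16 (TMM) gave alternative scalings, and scipy 1.17.1 the exact tests, which were tested on simulated data. The simulated counts held counting error only, with no variation between animals or preparations. edgeR's quasi-likelihood test needs a contrast, which 1 group does not give. CAST reads were counted against C57BL/6J sequence. Members and lists were chosen with earlier results of these data known. Detected members were named, with the 5 highest of the others by level among those with reads. The remaining members with reads and Gm22239, Mir466g, Mir466l, Mir467b and the Mir669a and Mir467a genes were named outside that rule, after their values were seen.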

Additional observations from a re-analysis of the deposited data

How the results depend on the processing

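All 7 detected members kept their direction and their call under TMM, DESeq2, all-read and unstranded scaling, 28 of 28 values. The number called was 5 with a minimum of 100 reads, which leaves 5 members to test, and 7 under every other setting tried. Minimums of 1, 5 and 100 reads gave 10, 8 and 5 detected members, and leaving out a library gave from 7 to 8. The mean share of the cluster was 0.178% with unstranded counts, whose total is smaller, 0.0477% of all reads, and 0.0544% without Mir467d. It ranged from 0.124% to 0.135% when either library was left out. The ratio of the summed counts was 1.05 with TMM, 1.07 with DESeq2 factors, and 1.56 without Mir467d. Runs of 18 or 22 bases, the latter chosen after seeing the data, left 65 members with runs of their own, as 20 bases did, and 2 members shared no run of 20 bases. Comparing whole mature sequences and matching them to a genome were not run. No paired analysis was possible because there is 1 group. Depth limits the 8 members with few reads, whose ratios were not tested.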
